A study of Mus musculus with 12 samples.

Results

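The D-type cyclins Ccnd1, Ccnd2 and Ccnd3, their kinases Cdk4 and Cdk6, the CDK inhibitors Cdkn2c, Cdkn2d, Cdkn1a and Cdkn1b, and the pocket protein Rbl2 were followed across 6 sorted subsets of mouse bone marrow. The members are the genes with these array names, 10 of 31541 gene names, measured by 16 of 39429 probes. All 10 genes, through 15 of the 16 probes, passed the filter on dim probes, as did 18557 genes in all. D cyclins bind CDK4 and CDK6 in G1 phase, and the complexes phosphorylate the retinoblastoma protein and its relatives, which releases E2F transcription factors and commits a cell to DNA synthesis. INK4 inhibitors (Cdkn2c, Cdkn2d) bind CDK4 and CDK6 directly, CIP/KIP inhibitors (Cdkn1a, Cdkn1b) act mainly on cyclin-CDK2 complexes, and Rbl2 with E2F4 and the MuvB proteins represses cell cycle genes in quiescent cells. In developing B cells, proliferating pro-B and large pre-B cells alternate with resting stages in which antigen receptor genes are rearranged, and cyclin D3 is known to be needed for the expansion of pre-B cells.

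The cells came from female C57BL/6 mice aged 16 weeks that carried a human CD4 surface reporter (hCD4) driven by Cebpa enhancer and promoter sequence, so the hCD4 sort reads the activity of that transgene. The 6 groups were hCD4+ granulocyte-monocyte progenitors (GMP), hCD4+ and hCD4- pre-pro-B cells, hCD4+ and hCD4- pro-B cells, and pre-B cells whose hCD4 status the labels do not give. Each group had 2 arrays, 12 in all. The labels do not say whether replicates came from separate mice, so a p-value here speaks of the spread among the samples alone, which may be technical. Every group carries the reporter, and no group of mice without it was analysed here.

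Levels are log2 signals after the 75th percentile of the array was subtracted, so 0 is the brightness of that percentile, and levels of different genes are not compared. In bulk RNA of sorted cells, fewer expressing cells and less RNA per cell cannot be told apart. The 75th percentile signal ranged from 247 to 953, and was lowest on the arrays of hCD4- pre-pro-B cells, at 362 and 247. On single arrays 50.6% to 56.7% of probes passed as well above background. Each of 3 slides held 4 arrays from a pair of groups, so that GMP can be set against hCD4- pre-pro-B cells within slide 1, hCD4- pro-B cells against those of the hCD4+ pre-pro-B group within slide 2, and pre-B against hCD4+ pro-B cells within slide 3. In every other comparison slide and group cannot be told apart.

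The labels were checked against markers. Pax5 and Ebf1, transcription factors of committed B cells, were not well above background on any GMP or pre-pro-B array, and all 13 B lineage markers were above background on both arrays of the hCD4+ pro-B, hCD4- pro-B and pre-B groups. All 7 plasmacytoid dendritic cell markers were above background on both arrays of both pre-pro-B groups. Their summed linear signal, in units of the 75th percentile, was 569 and 524 in hCD4+ pre-pro-B cells and 772 and 774 in hCD4- pre-pro-B cells, against 108 to 158 in the GMP, pro-B and pre-B groups. The 9 GMP markers summed to 1040 and 1240 in GMP, 20 and 45.8 in hCD4+ pre-pro-B, 4.95 and 4.31 in hCD4- pre-pro-B, 153 and 138 in hCD4+ pro-B, 2.86 and 3.11 in hCD4- pro-B, and 3.83 and 4.75 in pre-B cells. All 7 mature neutrophil markers were above background on both hCD4- pro-B arrays, with a sum of 25.7 and 14.1, against 0.312 to 4.42 in the other groups.

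A few sequences carry the measurement. The Ccnd2 probe (A_52_P53906, mm9 chr6:127098696-127098755, minus strand) and a Cdk4 probe (A_55_P2166639, mm9 chr10:126503162-126503221, plus strand) are shown as examples of what was hybridised: the first is the single probe behind every Ccnd2 value, and the second lies upstream of the brightest Cdk4 probe and serves as a check on it. The other members' probes are named only.
Ccnd2 probe: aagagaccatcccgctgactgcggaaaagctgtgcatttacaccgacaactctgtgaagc
Cdk4 probe: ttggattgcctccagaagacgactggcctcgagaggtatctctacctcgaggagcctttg

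Cdk4 and Cdk6 shared with Ccnd2 1 order of group means over the 6 groups, in which most neighbouring means were not told apart. Their promoters are shown because of this and because both windows hold the E-box CACGTG, the letters bound by MYC and related factors. They are the 250 bases before the start in RefSeq GRCm38.p6, at chr10:127063285-127063534 and chr5:3343643-3343892, both on the plus strand, and capitals mark CACGTG.
Cdk4 promoter: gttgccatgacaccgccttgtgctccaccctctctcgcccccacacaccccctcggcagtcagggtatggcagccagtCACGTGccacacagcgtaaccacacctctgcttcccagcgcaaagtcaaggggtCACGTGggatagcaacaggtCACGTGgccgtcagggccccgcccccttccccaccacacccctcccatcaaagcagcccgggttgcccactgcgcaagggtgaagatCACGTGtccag
Cdk6 promoter: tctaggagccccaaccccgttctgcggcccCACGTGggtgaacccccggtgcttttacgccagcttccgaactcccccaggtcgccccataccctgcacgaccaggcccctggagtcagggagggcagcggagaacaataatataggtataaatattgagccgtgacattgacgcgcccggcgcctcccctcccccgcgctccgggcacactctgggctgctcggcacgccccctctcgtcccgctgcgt
In the Cdk4 window CACGTG begins 172, 118, 98 and 11 bases before the start, and in the Cdk6 window it begins 220 bases before it. CACGTG reads the same on both strands, and 6.02% of 32851 RefSeq promoters of this length held it. Of all 32851, 0.021% held it at least 4 times. Of the 10 members, 8 had an entry in the promoter table, with 11 start sites. Ccnd1 and Ccnd2 had no entry, so their promoters were not read. Among the 11 windows read, no other held CACGTG. None held TTTCCCGC, TTTGGCGC, TTTGCCGC or TTTCGCGC, letters bound by E2F factors, which 1.86% of promoters held on either strand. TGTTTAC (FoxO factors, 3.17% of promoters) was found in 1 Ccnd3 window, TTTGAA (the cell cycle homology region read by MuvB complexes, 16% of promoters) in the Rbl2 window, and TTCNNNGAA (STAT factors, 7.02%) in none. A match is a description of letters and not a bound site.

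All 10 members varied among the 6 groups by the moderated F test of limma, where 82.8% of all genes did. The range of group means was over 1 on the log2 scale for 10 of 10 members and for 72.3% of all genes. Ccnd1 had the widest range of the members at 7.83, followed by Cdkn1a at 5.62 and Cdk6 at 4.59, and Rbl2 had the narrowest at 1.59. The ranges of Cdkn1a and Cdk6 run to hCD4- pre-pro-B arrays that were not well above background, and as bounds they are at least 47.4-fold and at least 11.6-fold. The median range over all genes was 1.5.

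**Figure D1:**
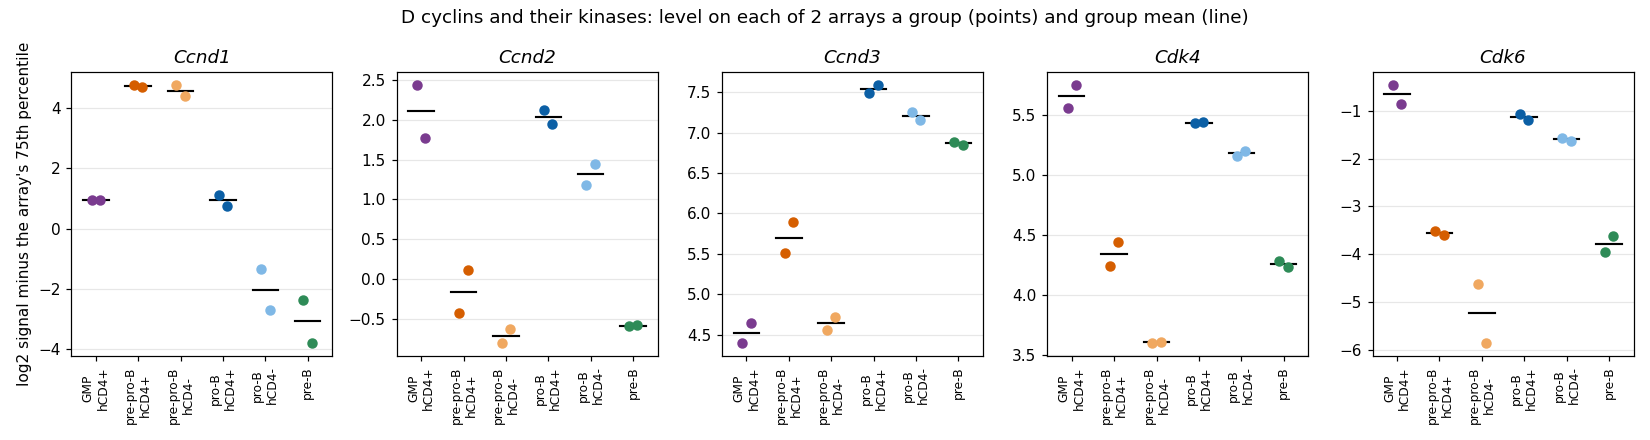
Levels of the 3 D cyclins and 2 kinases (y axis, log2 signal minus the 75th percentile of the array, with its own scale in each panel) in the 6 sorted groups; points are the 2 arrays of a group and lines their mean. Ccnd1 stands highest in both pre-pro-B groups, Ccnd3 in pro-B and pre-B cells, and Ccnd2, Cdk4 and Cdk6 in GMP and pro-B cells.

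The 3 D cyclins were highest in different cells. Ccnd1 (A_66_P111562, mm9 chr7:152116202-152116261, minus strand) had levels of 0.94 and 0.95 in GMP, 4.78 and 4.69 in hCD4+ pre-pro-B, 4.77 and 4.4 in hCD4- pre-pro-B, 1.13 and 0.74 in hCD4+ pro-B, -1.36 and -2.71 in hCD4- pro-B, and -2.38 and -3.80 in pre-B cells. All 4 pre-pro-B arrays thus stood above every other array, the hCD4+ pro-B arrays overlapped GMP, and the hCD4- pro-B arrays overlapped pre-B. Both the hCD4- pro-B and the pre-B pair were wide, with SDs of 0.95 and 1.0. Of the 5 neighbouring pairs in the order of group means, 2 differed: hCD4- pre-pro-B over GMP (adjusted p = 0.000311) and hCD4+ pro-B over hCD4- pro-B (adjusted p = 0.00618). The genes most like Ccnd1 over the 12 arrays were Clec10a (r = 0.997), Mpeg1 (0.996) and Ppfia4 (0.995). Clec10a encodes a lectin and Mpeg1 a pore-forming protein of macrophages and dendritic cells. Such correlations describe 12 arrays that share 6 sorts, and were taken as the highest among 7899 candidate genes.

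Ccnd2, the D cyclin induced by growth factor signals in many blood cells, had levels of 2.44 and 1.77 in GMP, -0.43 and 0.11 in hCD4+ pre-pro-B, -0.80 and -0.62 in hCD4- pre-pro-B, 2.12 and 1.95 in hCD4+ pro-B, 1.18 and 1.45 in hCD4- pro-B, and -0.59 and -0.58 in pre-B cells. GMP and hCD4+ pro-B arrays overlapped at the top, and both pre-pro-B groups and pre-B cells lay at the bottom. Between neighbouring group means the test told apart hCD4- pro-B from hCD4+ pre-pro-B alone (adjusted p = 0.00146). Drap1 (r = 0.98), Nipa1 and Ncs1 (each 0.978) had the most similar profiles.

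Ccnd3 (A_55_P2041075, mm9 chr17:47736579-47736638, plus strand) had levels of 4.4 and 4.64 in GMP, 5.51 and 5.89 in hCD4+ pre-pro-B, 4.56 and 4.72 in hCD4- pre-pro-B, 7.49 and 7.59 in hCD4+ pro-B, 7.25 and 7.16 in hCD4- pro-B, and 6.88 and 6.85 in pre-B cells. The pro-B and pre-B arrays all stood above the pre-pro-B and GMP arrays. Neighbouring means differed between pre-B and hCD4+ pre-pro-B (adjusted p = 0.000333) and between hCD4+ and hCD4- pre-pro-B cells (adjusted p = 0.00304). A second probe (A_51_P238448) followed the first over the 12 arrays with r = 0.99. Fzr1 (r = 0.967), which encodes an activator of the anaphase-promoting complex in G1, Colq and Fxyd6 (each 0.966) were most alike.

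Cdk4 and Cdk6 encode the catalytic partners of the D cyclins. Cdk4 (A_55_P2163143, mm9 chr10:126504279-126504338, plus strand) had levels of 5.56 and 5.75 in GMP, 4.24 and 4.44 in hCD4+ pre-pro-B, 3.60 and 3.61 in hCD4- pre-pro-B, 5.43 and 5.44 in hCD4+ pro-B, 5.16 and 5.20 in hCD4- pro-B, and 4.28 and 4.23 in pre-B cells. GMP and pro-B arrays were all above pre-pro-B and pre-B arrays, and hCD4- pre-pro-B arrays were lowest. The other Cdk4 probes (A_55_P1998188 and A_55_P2166639) followed it with r = 0.99 and 0.98. Impdh2 (r = 0.996), an enzyme of guanine nucleotide synthesis, had the most similar profile, with Lrfn4 and Sac3d1 next (each 0.994).

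Cdk6 (A_55_P2079630, mm9 chr5:3522106-3522165, plus strand) had levels of -0.45 and -0.85 in GMP, -3.51 and -3.59 in hCD4+ pre-pro-B, -4.62 and -5.86 in hCD4- pre-pro-B, -1.06 and -1.18 in hCD4+ pro-B, -1.57 and -1.62 in hCD4- pro-B, and -3.96 and -3.62 in pre-B cells. It was well above background on 10 of 12 arrays and on neither hCD4- pre-pro-B array. Higd1a (r = 0.99), Mrpl12 (0.989), a mitochondrial ribosome subunit, and Nfix (0.987) were most alike. Ccnd2, Cdk4 and Cdk6 shared 1 order of group means, namely GMP, hCD4+ pro-B, hCD4- pro-B, hCD4+ pre-pro-B, pre-B and hCD4- pre-pro-B from high to low, and no other member had it. In all 3 genes the first 3 of these groups lay above the last 3 on every array. Neighbouring means within the first 3 groups were not told apart by limma in any of the 3 genes. Nor were those of hCD4+ pre-pro-B and pre-B cells (adjusted p = 0.0768 to 0.845 over all these pairs). In the log2 table of the authors, Cdk4 was higher in pre-B (12.5 and 12.5) than in hCD4+ pre-pro-B cells (12.3 and 12.4), so the shared order did not hold there.

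**Figure D2:**
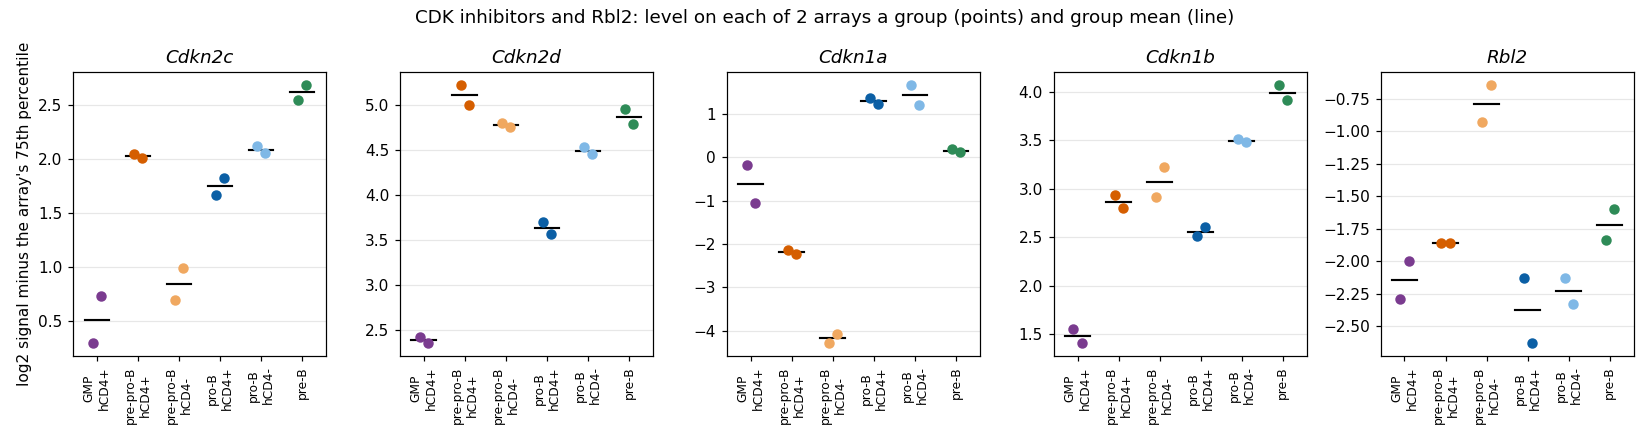
Levels of the 4 CDK inhibitors and Rbl2 (y axis, log2 signal minus the 75th percentile of the array, with its own scale in each panel) in the 6 sorted groups; points are the 2 arrays of a group and lines their mean. Cdkn2c, Cdkn2d and Cdkn1b are lowest in GMP, Cdkn1a is lowest in hCD4- pre-pro-B cells, and Rbl2 is highest there.

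The INK4 and CIP/KIP inhibitors did not share a profile. Cdkn2c (A_55_P2074796, mm9 chr4:109333508-109333567, minus strand) had levels of 0.30 and 0.73 in GMP, 2.05 and 2.01 in hCD4+ pre-pro-B, 0.70 and 0.99 in hCD4- pre-pro-B, 1.67 and 1.83 in hCD4+ pro-B, 2.12 and 2.06 in hCD4- pro-B, and 2.55 and 2.69 in pre-B cells. Pre-B arrays were highest, and the GMP and hCD4- pre-pro-B arrays overlapped at the bottom. Cdkn2d (A_55_P2022251, mm9 chr9:21092934-21092993, minus strand) had levels of 2.42 and 2.36 in GMP, 5.22 and 5.0 in hCD4+ pre-pro-B, 4.80 and 4.75 in hCD4- pre-pro-B, 3.70 and 3.57 in hCD4+ pro-B, 4.53 and 4.45 in hCD4- pro-B, and 4.95 and 4.78 in pre-B cells. Its GMP arrays lay lowest and its hCD4+ pro-B arrays next, apart from each other (adjusted p = 8.52e-05) and from hCD4- pro-B (adjusted p = 0.0026). The genes most like Cdkn2d were Samd9l and Ifi27l2a (each r = 0.979) and Trim34a (0.976), all known as interferon-induced genes, and those most like Cdkn2c were Zfp382 (0.956), Cort (0.94) and Arhgap33 (0.931).

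Cdkn1a (A_51_P363947, 10 spots, mm9 chr17:29237377-29237436, plus strand), a p53 target that also blocks the replication clamp, had levels of -0.19 and -1.05 in GMP, -2.15 and -2.23 in hCD4+ pre-pro-B, -4.28 and -4.07 in hCD4- pre-pro-B, 1.37 and 1.23 in hCD4+ pro-B, 1.67 and 1.20 in hCD4- pro-B, and 0.18 and 0.11 in pre-B cells. Neither hCD4- pre-pro-B array was well above background. The pro-B arrays were highest and overlapped each other, and 4 of 5 neighbouring means in the order differed. A dimmer kept probe (A_55_P1976204, above background on 7 of 12 arrays) correlated with the first at r = 0.11, and another (A_55_P1986282) was above background on 1 array and was not kept. Cbx3 (r = 0.983), Car13 (0.982) and Etaa1 (0.979) were most like the bright Cdkn1a probe.

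Cdkn1b (A_55_P2026562, mm9 chr6:134875424-134875483, plus strand), which holds many resting lymphocytes out of the cycle, had levels of 1.55 and 1.41 in GMP, 2.93 and 2.80 in hCD4+ pre-pro-B, 2.91 and 3.22 in hCD4- pre-pro-B, 2.51 and 2.60 in hCD4+ pro-B, 3.51 and 3.48 in hCD4- pro-B, and 4.07 and 3.91 in pre-B cells. Pre-B arrays were highest, GMP arrays lowest, and both pre-pro-B groups overlapped. A second Cdkn1b probe (A_52_P673863) had r = 0.92 with the first, and put hCD4- pre-pro-B arrays higher in the order: -1.26 and -1.40 in hCD4+ pre-pro-B cells, against -0.40 and 0.15 in hCD4- pre-pro-B cells. Atat1 (r = 0.986), Tbx6 (0.985) and Chd6 (0.98) were most like Cdkn1b.

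Rbl2 (A_52_P117325, mm9 chr8:93647120-93647179, plus strand) had levels of -2.29 and -2.00 in GMP, -1.86 and -1.86 in hCD4+ pre-pro-B, -0.93 and -0.64 in hCD4- pre-pro-B, -2.13 and -2.63 in hCD4+ pro-B, -2.13 and -2.33 in hCD4- pro-B, and -1.84 and -1.60 in pre-B cells. Both hCD4- pre-pro-B arrays stood above every other array, and among neighbouring means the test told this group apart from pre-B alone (adjusted p = 0.00448). Insr (r = 0.969), Rgp1 (0.968) and Tmx3 (0.966) had the most similar profiles.

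**Figure D3:**
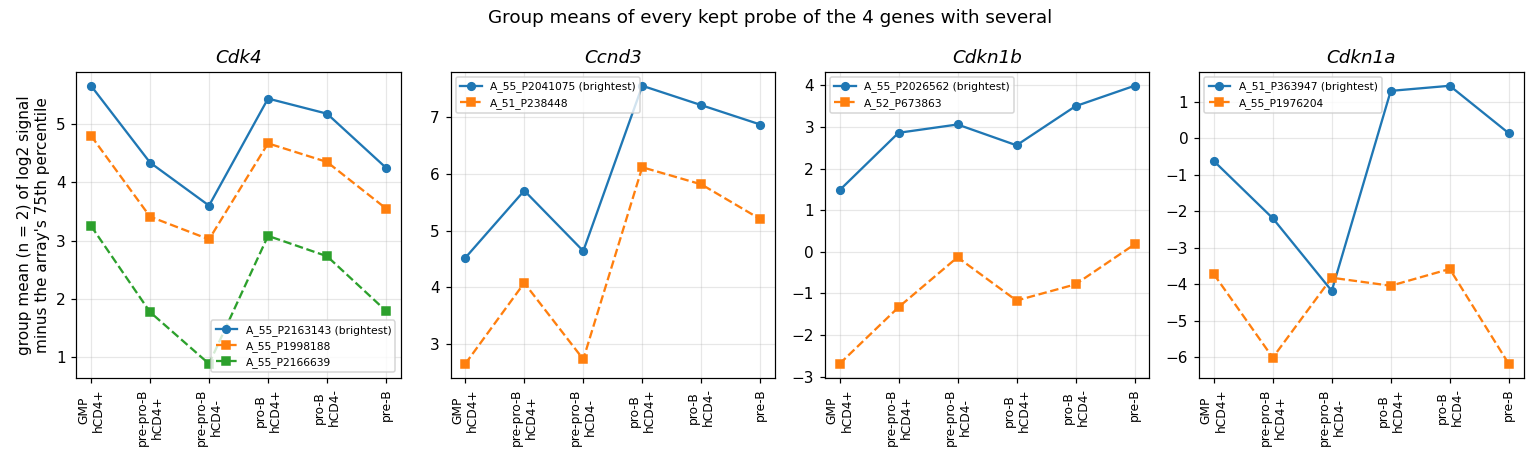
Group means (y axis, n = 2 arrays, log2 signal minus the 75th percentile of the array) of every kept probe of Cdk4, Ccnd3, Cdkn1b and Cdkn1a in the 6 groups (x axis); solid lines are the brightest probe of the gene. The Cdk4 and Ccnd3 probes run in parallel, the Cdkn1b probes part in hCD4- pre-pro-B cells, and the Cdkn1a probes do not follow each other (r = 0.11).

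The hCD4 contrast asks how cells that express the Cebpa reporter differ from cells of the same stage that do not. In pre-pro-B cells 5 of 10 members rose in hCD4+ cells and 1 fell, where 17.0% of all genes changed, 8.83% higher and 8.13% lower. The members' median change was 0.64 and that of all genes was -0.06. Ccnd3 rose by 1.06 ± 0.15 on the log2 scale (SE, adjusted p = 0.00304), Cdk4 by 0.74 ± 0.11 (adjusted p = 0.00425) and Cdkn2c by 1.18 ± 0.17 (adjusted p = 0.00283), all from limma with 2 arrays a group. Cdk6 was at least 1.56-fold higher in hCD4+ cells, with means of -3.55 and -5.24 in hCD4+ and hCD4- cells (adjusted p = 0.0152). Cdkn1a was at least 3.82-fold higher, with means of -2.19 and -4.18 (adjusted p = 0.00221). In both genes the lower group was not well above background on either array, and the bound sets it to the dimmest signal still above background there. Rbl2 fell by 1.07 ± 0.20 (adjusted p = 0.0103).

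Members that did not pass in pre-pro-B cells were Ccnd1 (0.15 ± 0.51, adjusted p = 0.861), Ccnd2 (0.55 ± 0.25, adjusted p = 0.162), Cdkn2d (0.33 ± 0.12, adjusted p = 0.095) and Cdkn1b (-0.20 ± 0.13, adjusted p = 0.334). The hCD4+ and hCD4- arrays overlapped for Ccnd1 and Cdkn1b and stood apart for the other 8 of 10 members, as they did for 58.3% of all genes. The Cdkn1b and Cdkn1a probes did not give 1 answer: the second Cdkn1b probe changed by -1.20 ± 0.19 in hCD4+ cells (adjusted p = 0.00492), and the dim Cdkn1a probe by -2.20 ± 0.69 (adjusted p = 0.062). That Cdkn1a probe was above background on neither hCD4+ array and on 1 of 2 hCD4- arrays, so its change rests largely on signals not above background. Of the other Cdk4 probes, 1 passed (0.89 ± 0.21, adjusted p = 0.0236) and 1 did not (0.39 ± 0.13, adjusted p = 0.0662). Fitted to the 4 pre-pro-B arrays alone, 1 of 10 members passed. The Cdk6 call was lost without hCD4+ pre-pro-B replicate 1 (adjusted p = 0.0704) or 2 (0.0764), and the Rbl2 call without hCD4+ replicate 2 (0.0625) or hCD4- replicate 2 (0.0591).

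Other genes of the pathway were read from lists of E2F and RB family members, cyclin and kinase genes and proliferation markers. In hCD4+ pre-pro-B cells 7 of 12 RB and E2F genes rose and none fell, led by E2f7 (2.75 ± 0.10, adjusted p = 1.26e-05), E2f8 (2.69 ± 0.11, adjusted p = 1.5e-05), E2f2 (1.93 ± 0.12, adjusted p = 4.12e-05) and Rbl1 (1.31 ± 0.18, adjusted p = 0.00254). E2f7 and E2f8 are repressors that E2F activators induce in S phase, and Rbl1 is the pocket protein most like Rbl2. All 7 CDK1 and cyclin B genes rose, among them Cdk1, the mitotic kinase (3.23 ± 0.12, adjusted p = 1.25e-05), and so did 7 of 8 kept cyclin E, cyclin A and CDK2 genes, among them Ccna2 (2.42 ± 0.14) and Ccne1 (2.30 ± 0.17). Of 12 proliferation markers 11 rose, with a list median of 1.84. Of 9 p53 targets 1 rose, Phlda3 (1.00 ± 0.23, adjusted p = 0.0233), and 0 of 7 FoxO factors and targets passed the limma test. Over all genes 8.83% rose and 17.0% passed, so counts this small differ little from that share. Beside these changes, 6 of 9 GMP markers rose in the hCD4+ cells, and Cebpa was among those not called (0.49 ± 0.49, adjusted p = 0.528). Irf8 was the plasmacytoid dendritic cell marker of 7 that fell (-0.53 ± 0.12, adjusted p = 0.0244), and the hCD4- arrays were the dimmest of the series. Igj, the joining chain of secreted antibodies and 1 of 4 plasma cell markers, fell by 5.48 ± 0.82 (adjusted p = 0.00367), and 2 of 7 mature neutrophil markers (Camp, -2.08 ± 0.41, and Ltf, below background in both groups) and 1 of 5 kept erythroid markers also fell. Their part in the result was not tested.

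In hCD4+ pro-B cells 1 of 10 members rose and 2 fell, where 20.6% of all genes changed, 11.5% higher and 9.07% lower. Ccnd1 rose by 2.97 ± 0.51 in hCD4+ pro-B cells (adjusted p = 0.00618), with levels of 1.13 and 0.74 in hCD4+ cells against -1.36 and -2.71 in hCD4- cells. Cdkn2d fell by 0.85 ± 0.12 (adjusted p = 0.0026) and Cdkn1b by 0.94 ± 0.13 (adjusted p = 0.00288), each with groups that did not overlap. The second Cdkn1b probe changed by -0.40 ± 0.19 (adjusted p = 0.188). Ccnd2 (0.72 ± 0.25, adjusted p = 0.0768), Ccnd3 (0.34 ± 0.15, adjusted p = 0.158), Cdk4 (0.26 ± 0.11, adjusted p = 0.144), Cdk6 (0.48 ± 0.35, adjusted p = 0.374) and Cdkn2c (-0.34 ± 0.17, adjusted p = 0.194) did not pass. Cdkn1a and Rbl2 each changed by -0.14, with overlapping arrays. The arrays of the other 8 of 10 members stood apart, as did those of 69.6% of all genes. The members' median change was 0.06, against 0.02 for all genes.

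The share of calls in the rest of the pathway in pro-B cells varied by list, beside 20.6% of all genes. Of 12 RB and E2F genes 1 rose, E2f4 (1.28 ± 0.15, adjusted p = 0.00124), the partner of Rbl2. Another 4 fell, among them Tfdp2 (-0.81 ± 0.19), Rb1, the retinoblastoma protein (-0.54 ± 0.11) and E2f2 (-0.50 ± 0.12). Of 7 CDK1 and cyclin B genes 2 fell, Cdc25b (-1.42 ± 0.18, adjusted p = 0.00184) and Ccnb2 (-0.59 ± 0.11, adjusted p = 0.00948), and none rose. Ccne2, an E cyclin, passed the test (adjusted p = 8.06e-05), was above background on both hCD4+ arrays and was on neither hCD4- array. Of 12 proliferation markers 1 rose, Tk1 (0.41 ± 0.12, adjusted p = 0.0439). Other cell types' markers moved with the sort. All 9 GMP markers rose in hCD4+ pro-B cells, and Mpo, the myeloperoxidase of granulocyte precursors, rose by 8.56 ± 1.26. Cebpa was among them (adjusted p = 0.00096), above background on both hCD4+ arrays and on neither hCD4- array. Of 7 plasmacytoid dendritic cell markers 5 rose, among them Klk1 (2.88 ± 0.76) and Cd300c (2.56 ± 0.34), whereas 6 of 7 mature neutrophil markers fell. Igj, of the 4 plasma cell markers, fell by 7.35 ± 0.82 (adjusted p = 0.000941), with mean levels of -5.2 in hCD4+ and 2.16 in hCD4- pro-B cells, and of 4 kept T and NK cell markers Nkg7 rose (1.30 ± 0.12) and Klrb1c, not above background in hCD4+ cells, fell. Siglech, a defining marker of plasmacytoid dendritic cells, stood at 6.56 and 6.27 in hCD4+ and hCD4- pro-B cells. Its level was 6.18 in GMP, 6.93 in pre-B, and 6.73 and 7.2 in hCD4+ and hCD4- pre-pro-B cells. The part of such cells in the Ccnd1, Cdkn2d and Cdkn1b changes was not tested.

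**Figure D4:**
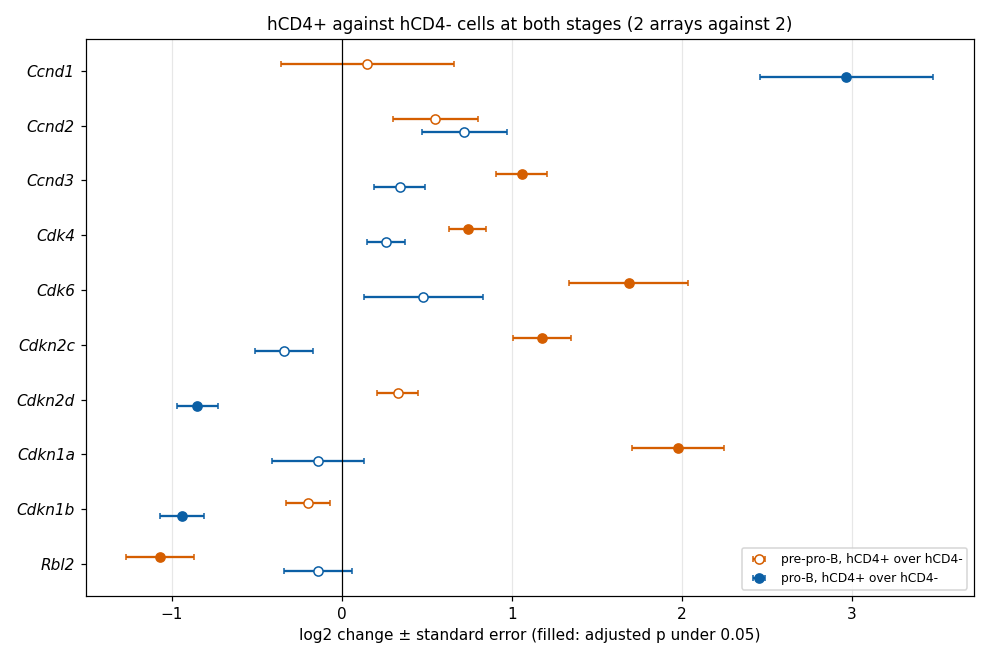
Change of each member (x axis, log2, hCD4+ over hCD4- cells, bars are SE) in pre-pro-B and pro-B cells, 2 arrays against 2; filled points have an adjusted p under 0.05. Ccnd1 lies near 0 in pre-pro-B cells and at 2.97 in pro-B cells, and Cdkn1a and Cdkn2c lie above 1 in pre-pro-B cells and below 0 in pro-B cells.

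The difference of both contrasts was tested directly, as the pro-B change minus the pre-pro-B change. It passed for 7 of 10 members, 2 higher and 5 lower, where 23.0% of all genes passed, 12.8% higher and 10.2% lower. Cdkn2c differed by -1.52 ± 0.24 (adjusted p = 0.00419), Cdkn2d by -1.19 ± 0.17 (adjusted p = 0.00293) and Cdkn1a by -2.12 ± 0.38 (adjusted p = 0.00724, with hCD4- pre-pro-B below background). Ccnd1 differed by 2.81 ± 0.72 (adjusted p = 0.0278), Cdkn1b by -0.74 ± 0.19 (adjusted p = 0.0283), Ccnd3 by -0.73 ± 0.22 (adjusted p = 0.0439) and Rbl2 by 0.93 ± 0.28 (adjusted p = 0.0487). The second Cdkn1b probe gave the opposite direction, 0.81 ± 0.27 (adjusted p = 0.0633), so the direction for Cdkn1b is not settled. The dim Cdkn1a probe also gave the opposite direction, 1.74 ± 0.98 (adjusted p = 0.229), with pre-pro-B signals largely not above background. The calls of Ccnd1, Ccnd3, Cdkn1b and Rbl2 were lost on leaving out single arrays, and 3 to 6 members passed over the 12 such fits. Over all 23 alternatives run, the call was lost in 19 for Rbl2, 11 for Ccnd3, 9 for Cdkn1b (reversed in 2 more) and 8 for Ccnd1. For Rbl2 these included array median scaling (0.41, adjusted p = 0.247) and quantile normalization (0.73, adjusted p = 0.0956). The calls of Cdkn2c and Cdkn2d held in all 23 alternatives run, with adjusted p up to 0.0186 and 0.0144, and that of Cdkn1a was lost with the mean of its probes (-0.19, adjusted p = 0.84). Among other pathway genes, 11 of 12 proliferation markers, 8 of 12 RB and E2F genes and 7 of 7 CDK1 and cyclin B genes differed in the lower direction. Scaling by the array median shifts the median of all genes in this difference by more than 0.1, to -0.46 against 0.06, and then 1 member passed as higher and 7 as lower, with 17.8% of all calls higher against 55.6%.

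Stage was compared within hCD4- and within hCD4+ cells, which share no arrays with each other. In hCD4- cells 7 of 10 members rose in pro-B over pre-pro-B cells and 2 fell, where 59.6% of all genes changed, 32.8% higher and 26.8% lower. The median change was 1.41 for members and 0.03 for all genes. In hCD4+ cells 5 rose and 2 fell, where 54.1% of all genes changed, 32.9% higher and 21.2% lower, with medians of 0.41 and 0.25. With array median scaling 5 rose and 5 fell in hCD4+ cells, where Cdkn2c (-0.61), Cdkn1b (-0.63) and Rbl2 (-0.85) passed as well, and 39.2% of all calls were higher against 60.8%. Ccnd1 fell by 6.62 ± 0.51 in hCD4- pro-B cells (adjusted p = 1.11e-05) and by 3.80 ± 0.51 in hCD4+ pro-B cells (adjusted p = 0.000414). Ccnd2 rose by 2.03 ± 0.25 in hCD4- cells and by 2.20 ± 0.25 in hCD4+ cells. Ccnd3 rose by 2.57 ± 0.15 in hCD4- cells (adjusted p = 2.44e-06) and by 1.84 ± 0.15 in hCD4+ cells (adjusted p = 3.19e-05). Among the D cyclins, then, 1 fell and 2 rose at this step in both sorts.

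Both kinases rose at the same step. Cdk4 rose by 1.57 ± 0.11 in hCD4- cells (adjusted p = 7.24e-06) and by 1.10 ± 0.11 in hCD4+ cells (adjusted p = 9.84e-05). Cdk6 was at least 6.04-fold higher in hCD4- pro-B than in hCD4- pre-pro-B cells, with means of -1.60 and -5.24, and rose by 2.43 ± 0.35 in hCD4+ cells (adjusted p = 0.000595). Cdkn1a was at least 47.4-fold higher in hCD4- pro-B cells, with means of 1.44 and -4.18, and rose by 3.49 ± 0.27 in hCD4+ pro-B cells (adjusted p = 2.07e-05). The dim Cdkn1a probe changed by 0.24 ± 0.69 and 1.98 ± 0.69 in those comparisons. It was above background on 1 of 2 hCD4- and on neither hCD4+ pre-pro-B array, so both values rest in part on signals not above background. Of 9 p53 targets, 4 rose and 2 fell in hCD4- pro-B cells, and 1 rose and 3 fell in hCD4+ pro-B cells. Zmat3, a p53 target, was among those that fell, by 3.19 ± 0.17 in hCD4- and by 2.83 ± 0.17 in hCD4+ cells.

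The other inhibitors and Rbl2 were called in some of these comparisons only. Cdkn2c rose by 1.24 ± 0.17 in hCD4- pro-B cells (adjusted p = 0.000296) and changed by -0.28 ± 0.17 in hCD4+ pro-B cells (adjusted p = 0.192). Cdkn2d changed by -0.28 ± 0.12 in hCD4- cells (adjusted p = 0.0731) and fell by 1.47 ± 0.12 in hCD4+ cells (adjusted p = 2.92e-05). Cdkn1b rose by 0.43 ± 0.13 in hCD4- cells (adjusted p = 0.0231) on its brighter probe, whereas the second probe fell by 0.65 ± 0.19 (adjusted p = 0.0172), so its direction at this step is not settled. In hCD4+ cells the brighter Cdkn1b probe changed by -0.31 ± 0.13 (adjusted p = 0.0857). Rbl2 fell by 1.44 ± 0.20 in hCD4- cells (adjusted p = 0.000352) and changed by -0.52 ± 0.20 in hCD4+ cells (adjusted p = 0.0576). The difference between the stage changes of both sorts is the same contrast as the difference of the hCD4 changes given above.

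Around the members, 11 of 12 RB and E2F genes rose in hCD4- pro-B cells (list median 1.74) and 11 of 12 in hCD4+ pro-B cells (0.77). E2f2, an E2F activator, rose by 4.95 ± 0.12 and 2.52 ± 0.12 in those comparisons. Of 12 proliferation markers, 11 rose in each, with medians of 2.75 in hCD4- and 1.26 in hCD4+ cells. With the markers of cell type, all 7 plasmacytoid dendritic cell markers fell in hCD4- pro-B cells and 6 of 7 fell in hCD4+ pro-B cells, and 12 of 13 B lineage markers rose in each. In hCD4- pro-B cells 6 of 7 mature neutrophil and 4 of 5 kept erythroid markers rose, and 2 of 4 plasma cell markers and 2 of 9 GMP markers fell. In hCD4+ pro-B cells 4 of 9 GMP markers, 3 of 5 kept erythroid markers and 1 of 7 mature neutrophil markers rose. Of 4 plasma cell markers 1 rose and 2 fell there, and 1 of 13 B lineage markers fell. Of 4 kept T and NK cell markers 1 rose in hCD4- and 2 rose in hCD4+ pro-B cells. The part of such cells in the members' changes at this step was not tested. Within slide 2, hCD4- pro-B cells set against hCD4+ pre-pro-B cells gave 6 members higher and 2 lower, where 47.9% of all genes changed, 29.3% higher and 18.6% lower. There Ccnd1 changed by -6.77 ± 0.51, Ccnd2 by 1.48 ± 0.25, Ccnd3 by 1.5 ± 0.15, Cdk4 by 0.84 ± 0.11, Cdk6 by 1.96 ± 0.35 and Cdkn1a by 3.63 ± 0.27, each past the test and in the direction of the other pro-B against pre-pro-B comparisons. Cdkn2d fell by 0.62 ± 0.12 (adjusted p = 0.00314). Cdkn1b rose by 0.63 ± 0.13 (adjusted p = 0.00485), and its second probe by 0.56 ± 0.19 (adjusted p = 0.0406). Neither Cdkn2c (0.06 ± 0.17, adjusted p = 0.81) nor Rbl2 (-0.37 ± 0.20, adjusted p = 0.162) passed within this slide, although both were called between the hCD4- groups.

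**Figure D5:**
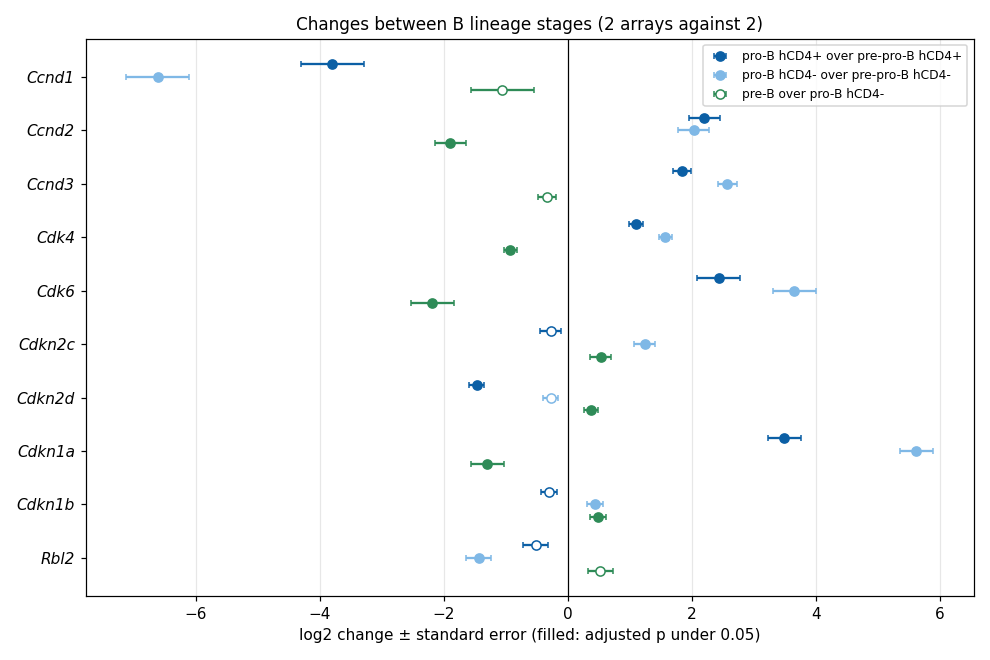
Change of each member (x axis, log2, bars are SE) between stages, for pro-B over pre-pro-B cells in each hCD4 sort and pre-B over hCD4- pro-B cells, 2 arrays against 2; filled points have an adjusted p under 0.05. Ccnd2, Cdk4, Cdk6 and Cdkn1a lie right of 0 for pro-B over pre-pro-B cells and left of it for pre-B over pro-B cells.

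From pro-B to pre-B cells the kinases and Ccnd2 fell. Against hCD4- pro-B cells 3 of 10 members rose and 4 fell in pre-B cells, where 41.0% of all genes changed, 19.7% higher and 21.2% lower. Against hCD4+ pro-B cells, on the same slide, 4 rose and 6 fell, where 42.9% of all genes changed, 19.1% higher and 23.8% lower. These comparisons share the pre-B arrays. Ccnd2 fell by 1.90 ± 0.25 against hCD4- pro-B cells (adjusted p = 0.000772) and by 2.62 ± 0.25 against hCD4+ pro-B cells (adjusted p = 9.2e-05). Cdk4 fell by 0.93 ± 0.11 and 1.19 ± 0.11, Cdk6 by 2.19 ± 0.35 and 2.67 ± 0.35, and Cdkn1a by 1.30 ± 0.27 and 1.16 ± 0.27, against hCD4- and hCD4+ pro-B cells in that order. Ccnd3 changed by -0.34 ± 0.15 (adjusted p = 0.109) and fell by 0.68 ± 0.15 (adjusted p = 0.00791), and its second probe fell in both comparisons, with changes of -0.61 ± 0.21 (adjusted p = 0.0467) and -0.90 ± 0.21 (adjusted p = 0.00848). The call against hCD4+ pro-B cells was lost with quantile normalization (-0.35, adjusted p = 0.0896). Ccnd1 changed by -1.06 ± 0.51 against hCD4- pro-B cells (adjusted p = 0.132), where arrays overlapped, and fell by 4.03 ± 0.51 against hCD4+ pro-B cells (adjusted p = 0.000413).

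The remaining inhibitors were higher in pre-B cells. Cdkn1b rose by 0.49 ± 0.13 against hCD4- pro-B cells (adjusted p = 0.0201) and by 1.43 ± 0.13 against hCD4+ pro-B cells (adjusted p = 8.68e-05), and its second probe by 0.95 ± 0.19 and 1.35 ± 0.19. Cdkn2c rose by 0.53 ± 0.17 (adjusted p = 0.0355) and 0.86 ± 0.17 (adjusted p = 0.00372), and Cdkn2d by 0.37 ± 0.12 (adjusted p = 0.0379) and 1.23 ± 0.12 (adjusted p = 0.000106). Rbl2 changed by 0.52 ± 0.20 (adjusted p = 0.0712) and rose by 0.66 ± 0.20 (adjusted p = 0.0288), a call that was lost without hCD4+ pro-B replicate 2 (0.41, adjusted p = 0.175) and without pre-B replicate 1 (adjusted p = 0.0527) or 2 (0.153). With array median scaling none of the 3 rises against hCD4- pro-B cells passed (Cdkn2c 0.34, Cdkn2d 0.18, Cdkn1b 0.30). The calls of Cdkn2c and Cdkn2d were also lost on leaving out any single array of the compared groups, with changes of 0.46 to 0.60 and 0.29 to 0.45. That of Cdkn1b was lost on leaving out either hCD4- pro-B array (0.50 and 0.48) or pre-B replicate 1 (0.41). Of 12 proliferation markers, 3 fell against hCD4- pro-B cells, led by Mcm6 (-0.91 ± 0.12) and Tk1 (-0.74 ± 0.12), and 6 fell against hCD4+ pro-B cells. Mki67, the classical marker of cycling cells, had mean levels of 6.2 in hCD4+ pro-B, 6.43 in hCD4- pro-B and 6.41 in pre-B cells. Beside these changes, 6 of 7 mature neutrophil markers fell against hCD4- pro-B cells, and of 4 plasma cell markers 2 rose and 2 fell. Igj had mean levels of 2.16 in hCD4- pro-B and -6.61 in pre-B cells, where it was not above background. Against hCD4+ pro-B cells 8 of 9 GMP markers and 5 of 7 plasmacytoid dendritic cell markers fell, the latter with a list median of -2.38. Of the kept erythroid markers 2 of 5 fell in either comparison. The part of such cells in the members' changes was not tested.

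GMP, the myeloid progenitors, were compared with both pre-pro-B groups, which share the GMP arrays as their partner. Against hCD4+ pre-pro-B cells 4 of 10 members rose and 5 fell, where 54.2% of all genes changed, 31.3% higher and 22.9% lower. Against hCD4- pre-pro-B cells, on the same slide, 4 rose and 4 fell, where 65.5% of all genes changed, 34.7% higher and 30.8% lower. Cdkn2d fell by 2.72 ± 0.12 against hCD4+ pre-pro-B cells (adjusted p = 6.86e-07) and by 2.38 ± 0.12 against hCD4- pre-pro-B cells (adjusted p = 8.73e-07). Cdkn1b fell by 1.39 ± 0.13 and 1.59 ± 0.13 in those comparisons, and on its second probe by 1.35 ± 0.19 and 2.56 ± 0.19. Cdkn2c fell by 1.51 ± 0.17 against hCD4+ pre-pro-B cells and changed by -0.33 ± 0.17 against hCD4- pre-pro-B cells (adjusted p = 0.114). Ccnd1 fell by 3.79 ± 0.51 and 3.63 ± 0.51. Ccnd2 rose by 2.26 ± 0.25 and 2.82 ± 0.25, and Cdk4 by 1.32 ± 0.11 and 2.05 ± 0.11. Ccnd3 fell by 1.18 ± 0.15 against hCD4+ pre-pro-B cells (adjusted p = 0.000265) and changed by -0.12 ± 0.15 against hCD4- pre-pro-B cells (adjusted p = 0.517). Rbl2 changed by -0.29 ± 0.20 against hCD4+ (adjusted p = 0.265) and fell by 1.36 ± 0.20 against hCD4- pre-pro-B cells (adjusted p = 0.000413).

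Cdk6 rose by 2.90 ± 0.35 in GMP against hCD4+ pre-pro-B cells (adjusted p = 0.000178), and was at least 11.6-fold higher than in hCD4- pre-pro-B cells. Cdkn1a rose by 1.57 ± 0.27 against hCD4+ pre-pro-B cells (adjusted p = 0.00123), and was at least 11.4-fold higher than in hCD4- pre-pro-B cells. The dim Cdkn1a probe changed by 2.29 ± 0.69 (adjusted p = 0.0219) and 0.10 ± 0.69 (adjusted p = 0.908) in those comparisons. It was above background on both GMP arrays, on neither hCD4+ and on 1 of 2 hCD4- pre-pro-B arrays. Set against hCD4+ pro-B cells, GMP had lower Ccnd3 (-3.02 ± 0.15), Cdkn2c (-1.24 ± 0.17), Cdkn2d (-1.25 ± 0.12), Cdkn1a (-1.92 ± 0.27) and Cdkn1b (-1.08 ± 0.13), which is 5 of 10 members where 45.0% of all genes changed, 24.4% lower and 20.6% higher, and none of the members was higher. Ccnd1 (0.01 ± 0.51), Ccnd2 (0.07 ± 0.25), Cdk4 (0.22 ± 0.11), Cdk6 (0.47 ± 0.35) and Rbl2 (0.23 ± 0.20) did not pass in that comparison. Of 12 proliferation markers, 8 rose in GMP against hCD4+ pre-pro-B cells (median 1.02) and 11 against hCD4- pre-pro-B cells (median 2.81). Beside these changes, all 9 GMP markers rose and all 7 plasmacytoid dendritic cell markers fell in GMP against either pre-pro-B group. Their part in the members' changes was not tested.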

How the data were processed

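Per the labels, RNA of sorted marrow cells was amplified, labelled and hybridised to 1-colour mouse arrays. Per the file headers, the authors deposited Agilent Feature Extraction 10.7.3.1 output, in which the processed signal is an intensity on a linear scale, corrected for background. The authors also deposited a log2 table with all column medians at 6.5, whose normalization is not given in the sources used here; it served as an alternative. Here log2 of the processed signal minus the 75th percentile of each array was taken. Of 44397 features 43020 were not controls, outlier spots (2469 values) were set to missing, and spots of a probe were averaged. A probe was kept where both arrays of 1 or more groups showed it well above background, and a gene is its kept probe of highest mean level. Probe positions are those of the array annotation (mm9).

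limma 3.58.1 (lmFit, eBayes) in R 4.3.3 fitted 12 arrays in 6 groups of 2, with 6 residual and 2.14 prior degrees of freedom. Tests were two-sided, with Benjamini-Hochberg adjustment over 18557 genes within each of 10 comparisons, an F test and 15 pairwise contrasts, and a gene rose or fell where the adjusted p was under 0.05. Errors of changes are standard errors and those of levels are SDs. The fit was tested on simulated data. The members, lists and comparisons were chosen with earlier results of these data known. All members and all their probes are named. The genes most alike are the 3 with the highest Pearson r, and up to 4 of the largest called changes are named from each pathway or marker list. Siglech, Mki67 and Cebpa were added after their values were seen. The shared spread can understate the error of the hCD4- pre-pro-B arrays, whose median replicate SD was 0.221, against 0.098 to 0.152 in the other groups. Alternatives were other scalings, probe filters, probe rules, variance priors, a replicate block, the compared arrays alone, the authors' table and leaving out each array. Figures used matplotlib.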

Additional observations from a re-analysis of the deposited data

Results flagged for a closer look

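The hCD4 contrast differed between stages for 7 members by the direct limma test of the difference, pro-B minus pre-pro-B. Ccnd1 differed by 2.81 (2.97 in pro-B and 0.15 in pre-pro-B cells) and Rbl2 by 0.93 (-0.14 and -1.07). Cdkn1a differed by -2.12 (-0.14 and 1.98), Cdkn2c by -1.52 (-0.34 and 1.18), Cdkn2d by -1.19 (-0.85 and 0.33), Cdkn1b by -0.74 (-0.94 and -0.20) and Ccnd3 by -0.73 (0.34 and 1.06). The second Cdkn1b probe gave 0.81 (-0.40 and -1.20), the opposite direction. The Cdkn1a value rests on hCD4- pre-pro-B arrays below background. The dim Cdkn1a probe gave 1.74 (-0.46 and -2.20), also the opposite direction, with pre-pro-B signals largely not above background. Over 23 alternatives the Rbl2 call was lost in 19, that of Ccnd3 in 11, that of Cdkn1b in 9 and that of Ccnd1 in 8. At each stage the hCD4+ and hCD4- groups lay on different slides, so slide and reporter status cannot be told apart.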

How the results depend on the processing

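The number of members called in hCD4+ against hCD4- pre-pro-B cells was 1 in place of 6 when only the compared arrays were fitted, which leaves fewer degrees of freedom. For the difference of the hCD4 contrasts it was 7, and 3 with no filter on dim probes, 4 with the mean of a gene's probes and 4 with only the compared arrays; the cause was not tested for the first of these. Leaving out each array in turn gave 4 to 6 members for pre-pro-B cells, 3 to 4 for pro-B cells and 3 to 6 for their difference. It gave 8 to 9 for pro-B over pre-pro-B in hCD4- cells, 7 to 8 in hCD4+ cells, 4 to 8 and 9 to 10 for pre-B over hCD4- and hCD4+ pro-B cells, 9 to 9 and 8 to 9 for GMP over hCD4+ and hCD4- pre-pro-B cells, 8 to 8 for hCD4- pro-B over hCD4+ pre-pro-B cells, and 10 to 10 for the F test.

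With the mean of a gene's probes Cdkn1a changed by -0.11 in pre-pro-B cells, and Cdkn1b by 0.04 in the difference and -0.11 in hCD4- pro-B over pre-pro-B cells. The authors' deposited table gave 0.1 and -0.2 for those Cdkn1b changes, and the cause was not tested. These 5 values reversed the reported direction. Over all member changes and alternatives, 2138 results kept direction and side of the threshold, 92 lost the call, 45 gained it and 5 reversed.

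Array median scaling moved the share of all calls that were higher to 83.6% against 52.1% in pre-pro-B cells, 30.8% against 55.9% in pro-B cells, 39.2% against 60.8% for hCD4+ pro-B over pre-pro-B cells, 34.6% against 48.2% for pre-B over hCD4- pro-B cells and 69% against 53% for GMP over hCD4- pre-pro-B cells. Calls over all genes ranged from 485 to 5320 in pre-pro-B cells (3146), 1475 to 4742 in pro-B cells (3814), 2027 to 6407 for the difference (4268) and 4661 to 9050 for pre-B over hCD4- pro-B cells (7601).

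Correlations of replicate differences were -0.01 to 0.26, over 0.1 in 10 of 15 pairs and not in all, so replicate numbers were not taken as pairs; a weak shared effect of the number is possible. With a replicate block 6 members were called in pre-pro-B cells, 3 in pro-B cells and 6 for the difference, where Rbl2 was lost (adjusted p = 0.0578). A slide term gives the same values for comparisons within a slide and none for the others.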
